A study of Mus musculus with 12 samples.

Results

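The 49 protein-coding genes described here were the Wnt ligands (19 genes), the Frizzled receptors (10), the co-receptors Lrp5 and Lrp6, the R-spondins (4) and their receptors Lgr4, Lgr5 and Lgr6, the secreted antagonists of the Sfrp and Dkk families with Frzb and Wif1 (10), and Axin2. They were taken by gene symbol alone from the 54532 genes of the deposited table. RNA had been sequenced from bone marrow mesenchymal stem cells (MSCs) of C57BL/6 mice aged 4 weeks, used at passage 3, in 4 groups of 3 libraries. Control libraries came from Chd7fl/fl mice and are labelled WT. The other libraries are labelled Chd7 KO and came from Prx1-cre;Chd7fl/fl mice, in which Cre recombinase, driven by a promoter active in early limb mesenchyme, was meant to remove a floxed exon of Chd7, the gene of a chromatin remodeling enzyme. Both groups thus carried the floxed alleles, and the controls had no Cre. MSCs were flushed from the marrow of femurs, tibiae and humeri, and their RNA was taken 5 days after induction. Osteogenic medium held 50 µM ascorbic acid, 10 mM β-glycerophosphate and 10 nM dexamethasone, and adipogenic medium held 10 µg/ml insulin, 0.5 µM isobutylmethylxanthine and 1 µM dexamethasone. The labels do not say whether the 3 libraries of a group came from separate animals, so p-values measure the spread between these libraries only, which may be technical.

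Wnt proteins are secreted, lipid-modified ligands that bind a Frizzled receptor on the cell surface. With Lrp5 or Lrp6 as co-receptor, binding stabilises β-catenin, which enters the nucleus and acts with TCF/LEF factors on target genes, while other Wnt proteins act through receptors such as Ror2 and Ryk without β-catenin. Sfrp proteins and Wif1 bind Wnt proteins outside the cell, Dkk1 blocks the Lrp co-receptors, and R-spondins bound to Lgr receptors keep Frizzled receptors from being removed from the membrane. In marrow stromal cells, β-catenin signaling is known to favour osteoblast formation and to restrain adipocyte formation.

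Of the 49 genes, 22 reached 1 FPKM (fragments on a gene, scaled to its length and to the size of the library) in at least 3 of the 12 libraries and were tested, among 12871 such genes in all. Each library held 17505159 to 21086873 fragments on genes, as recovered from the steps between FPKM values, and the FPKM of a library summed to 295244 to 380097. Of the targeted gene, Chd7, the table held values of 2.64, 2.67 and 2.77 FPKM in control and 2.03, 2.35 and 2.28 FPKM in labelled knockout libraries in osteogenic medium (log2 difference -0.20 ± 0.08 SE, adjusted p = 0.16), and 2.26, 1.81 and 2.23 against 2.03, 2.36 and 2.49 FPKM in adipogenic medium (0.09 ± 0.08 SE, adjusted p = 0.43). The genotypes were apart in the first medium and overlapped in the second, and neither difference passed. These are values over the whole gene, so that the loss of 1 exon can be seen in them only in part, and knockout is used below as the label of the libraries. The paper reports deletion of Chd7 from staining of mouse tissue, genotyped the mice by PCR and blotted CHD7 protein in MSCs. Such assays are not measures of the libraries themselves. Control library 2 in adipogenic medium stood apart from the other controls, with correlations of log2 values down to 0.939 within its group, against 0.980 or more in the other groups. It was more than 1.5 times above the mean of the other 2 libraries for Fzd5, Lgr4, Fzd7, Wnt10b, Wif1 and Lgr6, and more than 1.5 times below it for Rspo3.

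Macrophage markers were abundant in all 12 libraries. The 14 macrophage markers summed to 14340 to 14810 FPKM in control and 15850 to 16310 FPKM in labelled knockout libraries in osteogenic medium, and to 9711 to 19210 and 7926 to 9403 FPKM in adipogenic medium, where control library 2 had the lowest control value. In osteogenic medium the higher sum went with Lyz2 (9182 and 11110 FPKM in the mean), while 11 of the 14 had negative differences (median -0.14), 3 passing as lower and 1 as higher, beside 4.15% and 4.94% of all genes. In adipogenic medium 7 of the 14 fell and 3 rose in the labelled knockout, beside 16.5% and 16.7%. The mesenchymal stromal markers, of which 8 of 10 were tested, summed to 455 to 463, 516 to 541, 488 to 506 and 559 to 595 FPKM in the same order of groups. Of these 8, 3 passed as higher and 0 as lower in osteogenic medium, beside 4.94% and 4.15% of all genes. In adipogenic medium they were split, with 4 higher and 2 lower, beside 16.7% and 16.5%. The adipocyte markers, whose 4 tested genes were Pparg, Cebpa, Fabp4 and Lpl, summed to 252 to 265, 182 to 198, 112 to 169 and 175 to 222 FPKM. The control cells in adipogenic medium thus lay below those in osteogenic medium, and Adipoq, Plin1, Cidec and Lep were not among the genes tested. Of the 4, 2 passed as lower and 0 as higher in osteogenic medium, and 2 as higher and 0 as lower in adipogenic medium, beside the same shares of all genes. Osteoblast markers, 8 of 8 tested, summed to 1863 to 2160, 2709 to 2950, 1726 to 1982 and 2017 to 2193 FPKM. In osteogenic medium that sum followed Spp1, which rose from 1378 to 2131 FPKM in the mean, while 5 of the 8 had negative differences (median -0.14). There 1 of the 8 passed as higher and 1 as lower, beside 4.94% and 4.15% of all genes. In adipogenic medium 4 passed as higher and 0 as lower (median 0.47), beside 16.7% and 16.5%. Endothelial markers, of which 3 of 5 tested rose in each medium, were at 6.95 to 7.27 FPKM in control and 12.7 to 13.6 FPKM in labelled knockout libraries in osteogenic medium and at 5.77 to 6.67 and 9.54 to 11.6 FPKM in adipogenic medium. Genes that glucocorticoids are known to induce, such as Fkbp5, also moved with the groups although both media held dexamethasone. Their 11 members summed to 284 to 296, 198 to 203, 206 to 248 and 427 to 468 FPKM, with 6 of 11 lower in the labelled knockout in osteogenic medium and 10 of 11 higher in adipogenic medium, to be read, like the endothelial counts, beside the same 4.15% lower and 4.94% higher of all genes in osteogenic and 16.7% higher in adipogenic medium. The control libraries in adipogenic medium, which held more dexamethasone, thus lay below those in osteogenic medium, and neither these genes nor Chd7 bear out the labels of all groups. Whether any library carries the label of another group was not tested, so every genotype or medium named below is that of the label. The part of these cells and genes in the results below was not tested, and in such bulk RNA fewer cells of a type and less RNA per cell cannot be told apart.

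**Figure D1:**
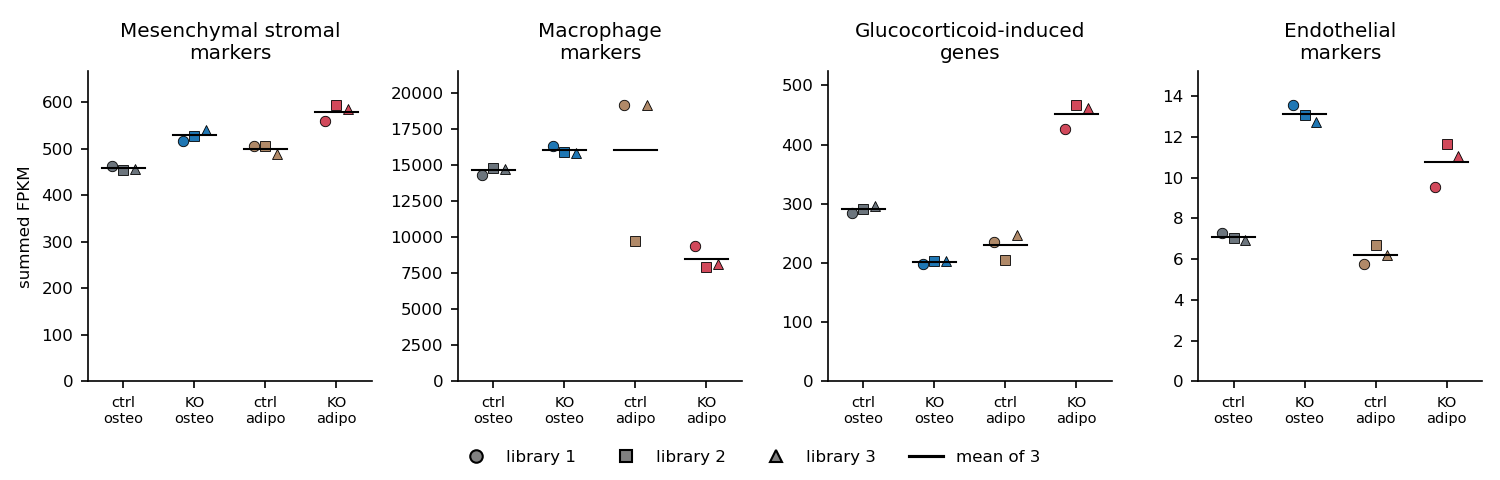
Summed FPKM of marker lists in each of the 12 libraries (points, with the mean of 3 as a line; the shape gives the library number), with osteogenic and adipogenic medium side by side for control (ctrl) and labelled knockout (KO) libraries. Control library 2 in adipogenic medium, at 9711 FPKM of macrophage markers, sits near the labelled knockout libraries of that medium, and the sum of the glucocorticoid-induced genes is lower in the labelled knockout in osteogenic medium and higher in adipogenic medium.

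In osteogenic medium, 9 of the 22 tested genes passed an adjusted p of 0.05 between labelled knockout and control (limma on log2(FPKM + 1), adjusted over all 12871 genes), beside 9.09% of all genes tested. Those higher in the labelled knockout were 8 genes (beside 4.94% of all genes), namely Sfrp1, Sfrp4, Wnt4, Wnt10b, Fzd1, Fzd2, Rspo2 and Lgr4, and Sfrp2 alone was lower (4.15%). The genotypes did not overlap for 19 of the 22 genes (44.3% of all genes), with the labelled knockout wholly above control for 17 and wholly below for 2, beside 21.0% and 23.2% of all genes, and the median log2 difference was 0.23 for the 22 genes and -0.01 for all genes. Sfrp1, Sfrp2, Sfrp4, Wnt4 and Fzd2 passed in each of the 6 fits that left out 1 of the libraries compared. The calls of Lgr4, Rspo2, Wnt10b and Fzd1 were lost in some of those fits, as given with each gene below, and with equal sums of FPKM in each library Lgr4, Rspo2 and Wnt10b did not pass either, which left 5 higher and 1 lower (4.08% of all genes passed there).

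In adipogenic medium 11 of the 22 genes passed, beside 33.2% of all genes. Wnt5a, Wnt9a, Wnt11, Fzd2, Fzd5, Fzd8, Sfrp2 and Wif1 were higher in the labelled knockout (16.7% of all genes were), and Wnt4, Wnt5b and Sfrp4 were lower (16.5%). The genotypes did not overlap for 12 genes (38.6% of all genes), 9 of them higher and 3 lower in the labelled knockout, beside 20.2% and 18.4% of all genes. Wnt11 reached the level needed for testing only through the 3 labelled knockout libraries in this medium, so that it had to differ, and without it 10 of 21 genes passed (7 higher). Where each library was rescaled to the same sum of FPKM, 10 genes were higher and 2 lower (25.3% and 6.96% of all genes), and the median of all genes itself moved to 0.14. Without control library 2 the count was 17 (13 higher and 4 lower), while 51.04% of all genes passed, with Fzd7, Lrp6, Lgr4, Lgr6 and Wnt10b added as higher and Rspo3 as lower.

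An interaction of genotype and medium passed for 9 genes (20.4% of all genes), which tests whether the genotypes differed by an unequal amount in the media. The difference was more positive in adipogenic medium for Fzd5, Fzd8, Sfrp2 and Wif1 (10.9% of all genes) and more negative for Sfrp1, Sfrp4, Wnt4, Wnt5b and Rspo2 (9.58%). Rescaled to equal sums, 5 were of the first kind and 3 of the second, without Rspo2 and Wnt5b (adjusted p = 0.13 and 0.11), and the median of all genes moved to 0.16. The filter favours the interaction of Wnt5b, as given with that gene below. Sfrp2, Sfrp4 and Wnt4 passed in both media with opposite signs, which 2.32% of all genes did, and Fzd2 passed in both with the same sign (2.67%). The 6 tested genes that passed in neither medium were Dkk3, Fzd7, Lgr6, Lrp5, Lrp6 and Rspo3.

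**Figure D2:**
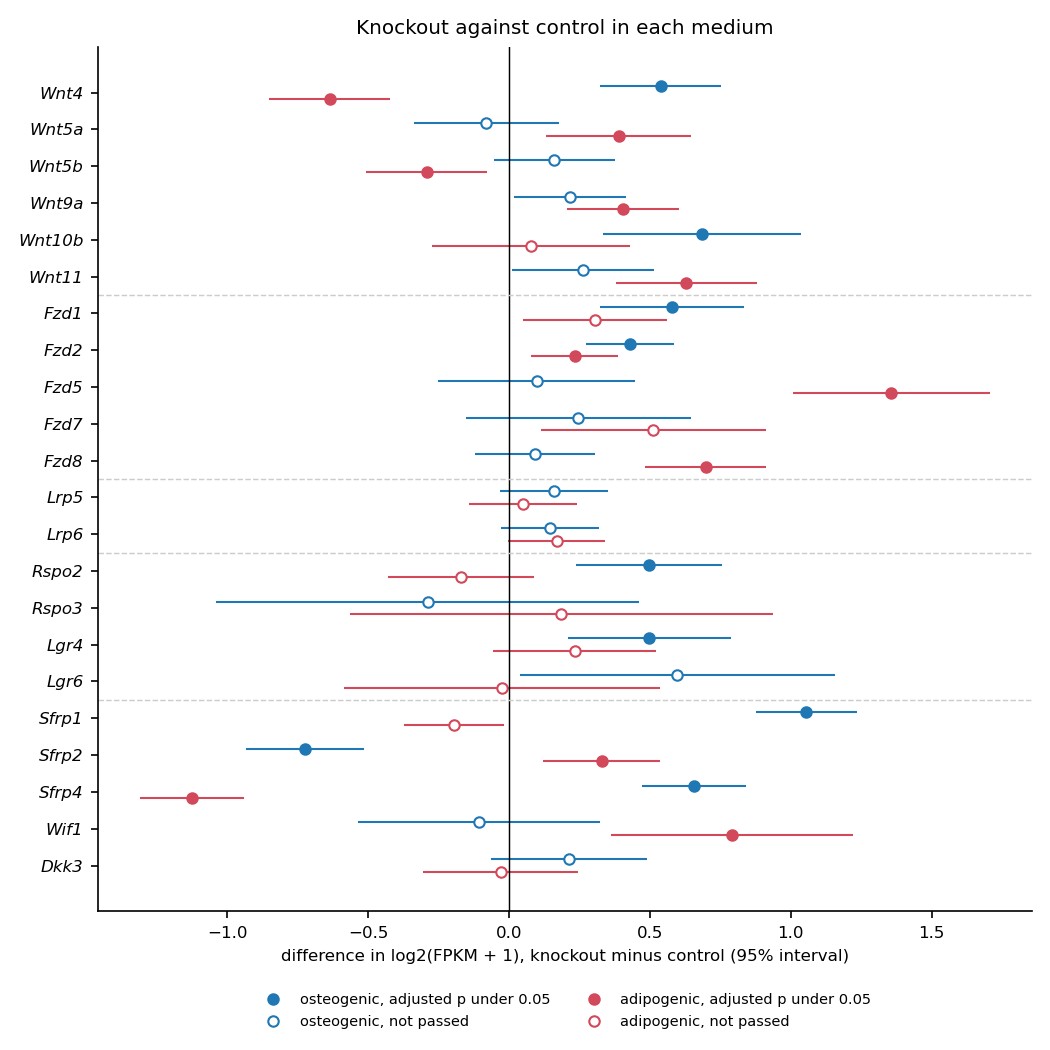
Difference in log2(FPKM + 1) between labelled knockout and control (points) with its 95% interval (lines) for the 22 tested genes, in osteogenic (blue) and adipogenic (red) medium; filled points passed an adjusted p of 0.05, and dashed lines separate ligands, Frizzled receptors, Lrp co-receptors, R-spondins with Lgr receptors, and secreted antagonists. Wnt4, Sfrp2 and Sfrp4 have filled points on opposite sides of 0, and Fzd5 has the largest positive difference, 1.36 in adipogenic medium.

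Sequences upstream of the transcription start are shown for Wnt11 and for 3 genes whose interaction passed (Sfrp2, Fzd5 and Wnt5b). They are the stretches in which binding sites of TCF/LEF factors or of the glucocorticoid receptor could be looked for by their letters. The interaction of Wnt5b is favoured by the filter and passed in 3 of the 12 fits that left out 1 library. Each run gives the 250 bases before a RefSeq transcription start (GRCm38.p6), 5′ to 3′ on the strand of the gene, with matches to the TCF/LEF core CTTTGA in capitals, on either strand.
Sfrp2, chr3:83766071-83766320, plus strand: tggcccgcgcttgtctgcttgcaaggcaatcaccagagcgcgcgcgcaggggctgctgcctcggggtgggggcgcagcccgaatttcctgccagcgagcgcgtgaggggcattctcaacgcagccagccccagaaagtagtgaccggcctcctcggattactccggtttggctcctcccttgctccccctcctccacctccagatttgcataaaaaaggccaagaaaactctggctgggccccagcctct
Fzd5, chr1:64737751-64738000, minus strand: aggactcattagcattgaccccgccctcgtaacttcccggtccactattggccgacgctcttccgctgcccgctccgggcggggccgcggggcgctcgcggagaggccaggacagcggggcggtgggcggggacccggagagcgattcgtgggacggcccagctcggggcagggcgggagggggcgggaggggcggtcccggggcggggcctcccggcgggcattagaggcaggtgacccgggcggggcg
Wnt5b, chr6:119449387-119449636, minus strand: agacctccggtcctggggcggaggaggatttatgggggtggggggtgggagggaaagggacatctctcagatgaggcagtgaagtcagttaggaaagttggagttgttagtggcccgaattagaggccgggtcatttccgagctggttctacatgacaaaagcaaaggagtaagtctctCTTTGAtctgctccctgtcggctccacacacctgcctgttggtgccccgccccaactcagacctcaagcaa
Wnt11, chr7:98834862-98835111, plus strand: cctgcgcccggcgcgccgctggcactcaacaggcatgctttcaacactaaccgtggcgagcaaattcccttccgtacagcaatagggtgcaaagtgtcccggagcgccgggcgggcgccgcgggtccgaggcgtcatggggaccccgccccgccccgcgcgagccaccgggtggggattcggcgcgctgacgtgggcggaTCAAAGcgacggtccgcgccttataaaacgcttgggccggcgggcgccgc
The Wnt5b window, 1 of 3 listed for that gene, held the core 71 bases before the start, and the Wnt11 window, 1 of 2, held it 50 bases before. Of the 22 tested genes, 12 had a window in the table, 15 windows in all. The core was found in 3 of the 15 (20.0%, the other one at Fzd1), and in 13.8% of the 32851 promoters of the same length. The glucocorticoid receptor half-site TGTTCT, searched on both strands, can share its last letters CT with the start of the core, and was found in 1 of 15 (6.67%, at another Wnt5b start) against 16.1% of all. The 15 windows had a median GC content of 65.2%, against 52.4% for all promoters, and a match is a description of letters, not of a bound site.

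Among the ligands, 6 of 19 genes were expressed at a level that could be tested. Wnt5a, which acts mainly without β-catenin, was the most abundant per length, and took 48.2 to 53.1% of the summed ligand FPKM in control and 36.1 to 37.6% in labelled knockout libraries in osteogenic medium. The sum itself was 12.5 to 14.9 FPKM in control and 16.1 to 18.4 FPKM in labelled knockout libraries there, and 14.9 to 16.4 and 15.7 to 17.9 FPKM in adipogenic medium. The sums of the genotypes were thus apart in osteogenic medium and overlapped in adipogenic medium.

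Wnt4 (ENSMUSG00000036856, chr4:137277489-137299726, plus strand), a ligand that has been tied to osteoblast formation, was the ligand that passed in both media, with opposite signs. In osteogenic medium it was at 0.671, 0.922 and 0.931 FPKM in control and 1.77, 1.503 and 1.74 FPKM in labelled knockout libraries. The values in adipogenic medium were 4.19, 3.66 and 4.43 FPKM in control and 1.97, 2.24 and 2.64 FPKM in labelled knockout libraries. The groups did not overlap in either medium, and the labelled knockout was above control in the first and below it in the second. The log2 difference was 0.54 ± 0.10 (SE, adjusted p = 0.0077) in osteogenic and -0.64 ± 0.10 (SE, adjusted p = 0.00095) in adipogenic medium, and the 2 differed by -1.17 ± 0.14 (SE, adjusted p = 0.00037). Wnt4 made up 24.5 to 27.4% of ligand FPKM in control libraries in adipogenic medium and 12.5 to 14.8% in the labelled knockout.

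Wnt10b (ENSMUSG00000022996, chr15:98770712-98778150, minus strand), a ligand known to promote bone formation and to inhibit adipocyte formation through β-catenin, was higher in the labelled knockout in osteogenic medium. It was at 2.06, 2.22 and 2.60 FPKM in control and 4.40, 4.03 and 4.41 FPKM in labelled knockout libraries, a log2 difference of 0.68 ± 0.16 (SE, adjusted p = 0.024). Only without control library 3 did it still pass in the fits that left out 1 library (without each of the other 5, adjusted p was up to 0.089 at differences of 0.63 or more). Adipogenic medium gave 1.40, 2.84 and 1.42 FPKM in control and 1.80, 2.03 and 2.09 FPKM in labelled knockout libraries, with control library 2 above the other 2 controls and a difference of 0.08 ± 0.16 (SE, adjusted p = 0.73). Without control library 2 that difference was 0.30 (adjusted p = 0.0091). The interaction did not pass (-0.61 ± 0.22 SE, adjusted p = 0.083).

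Wnt5a (ENSMUSG00000021994, chr14:28504750-28527448, plus strand) was at 7.35, 6.17 and 7.19 FPKM in control and 6.70, 5.81 and 6.91 FPKM in labelled knockout libraries in osteogenic medium, where the groups overlapped (-0.08 ± 0.12 SE, adjusted p = 0.75). After adipogenic induction it was at 6.22, 4.84 and 7.05 against 7.55, 8.79 and 8.11 FPKM, a difference of 0.39 ± 0.12 (SE, adjusted p = 0.027). That call was lost without control library 1 or labelled knockout library 2 or 3, with adjusted p of up to 0.091 and a difference of 0.26 or more in the 6 fits. Of its exonic bases, 4.58% are shared with an antisense gene, Gm2670, and as the use of strand is not given the reads of the pair cannot be told apart. The interaction was 0.47 ± 0.16 (SE, adjusted p = 0.068).

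Wnt5b (ENSMUSG00000030170, chr6:119432531-119544347, minus strand), a close relative of Wnt5a, moved the other way in adipogenic medium. There it was at 1.19, 0.954 and 0.791 FPKM in control and 0.622, 0.560 and 0.654 FPKM in labelled knockout libraries, a difference of -0.29 ± 0.10 (SE, adjusted p = 0.041) that rests on 139 and 92 fragments over the 3 libraries. The groups did not overlap, but the call was lost without control library 1 or any 1 of the labelled knockout libraries (adjusted p up to 0.15, differences of -0.36 to -0.22), and also with equal sums of FPKM, the replicate block, no filter or only the 6 libraries compared. In osteogenic medium it was at 0.810, 0.852 and 1.13 against 1.11, 1.21 and 1.14 FPKM (0.16 ± 0.10 SE, adjusted p = 0.37), and the interaction was -0.45 ± 0.14 (SE, adjusted p = 0.042), which passed in 3 of the 12 fits that left out 1 library (adjusted p 0.032 to 0.095). The labelled knockout libraries in osteogenic medium, where its mean was highest, were needed to bring Wnt5b into the tested set. The filter thus favours this interaction.

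Wnt9a (ENSMUSG00000000126, chr11:59306928-59333552, plus strand), a ligand with a known role at joints, was at 1.69, 1.30 and 1.84 FPKM in control and 2.17, 1.86 and 2.03 FPKM in labelled knockout libraries in osteogenic medium (0.22 ± 0.09 SE, adjusted p = 0.18). Under adipogenic conditions it was at 0.914, 1.19 and 0.983 against 1.71, 1.63 and 1.71 FPKM (0.40 ± 0.09 SE, adjusted p = 0.0072). The labelled knockout libraries lay above the controls in both media, and only the adipogenic difference passed, with no pass for the interaction (0.19 ± 0.13 SE, adjusted p = 0.32).

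Wnt11 (ENSMUSG00000015957, chr7:98835112-98855195, plus strand), a ligand that acts mainly without β-catenin, stood lower. It was at 0.613, 0.431 and 0.520 FPKM in control and 0.780, 0.775 and 0.916 FPKM in labelled knockout libraries in osteogenic medium (0.26 ± 0.11 SE, adjusted p = 0.19). The values in adipogenic medium were 0.456, 0.531 and 0.910 FPKM in control and 1.35, 1.69 and 1.49 FPKM in labelled knockout libraries, from 138 and 354 fragments. As this last group alone brought the gene into the tested set, its difference in adipogenic medium (0.63) is given as a description, with no test. The interaction of Wnt11 (0.37) uses the same group and is likewise given with no test. The reads of Wnt11 and of antisense Gm8398, which share 8.8% of its exonic bases, cannot be told apart.

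**Figure D3:**
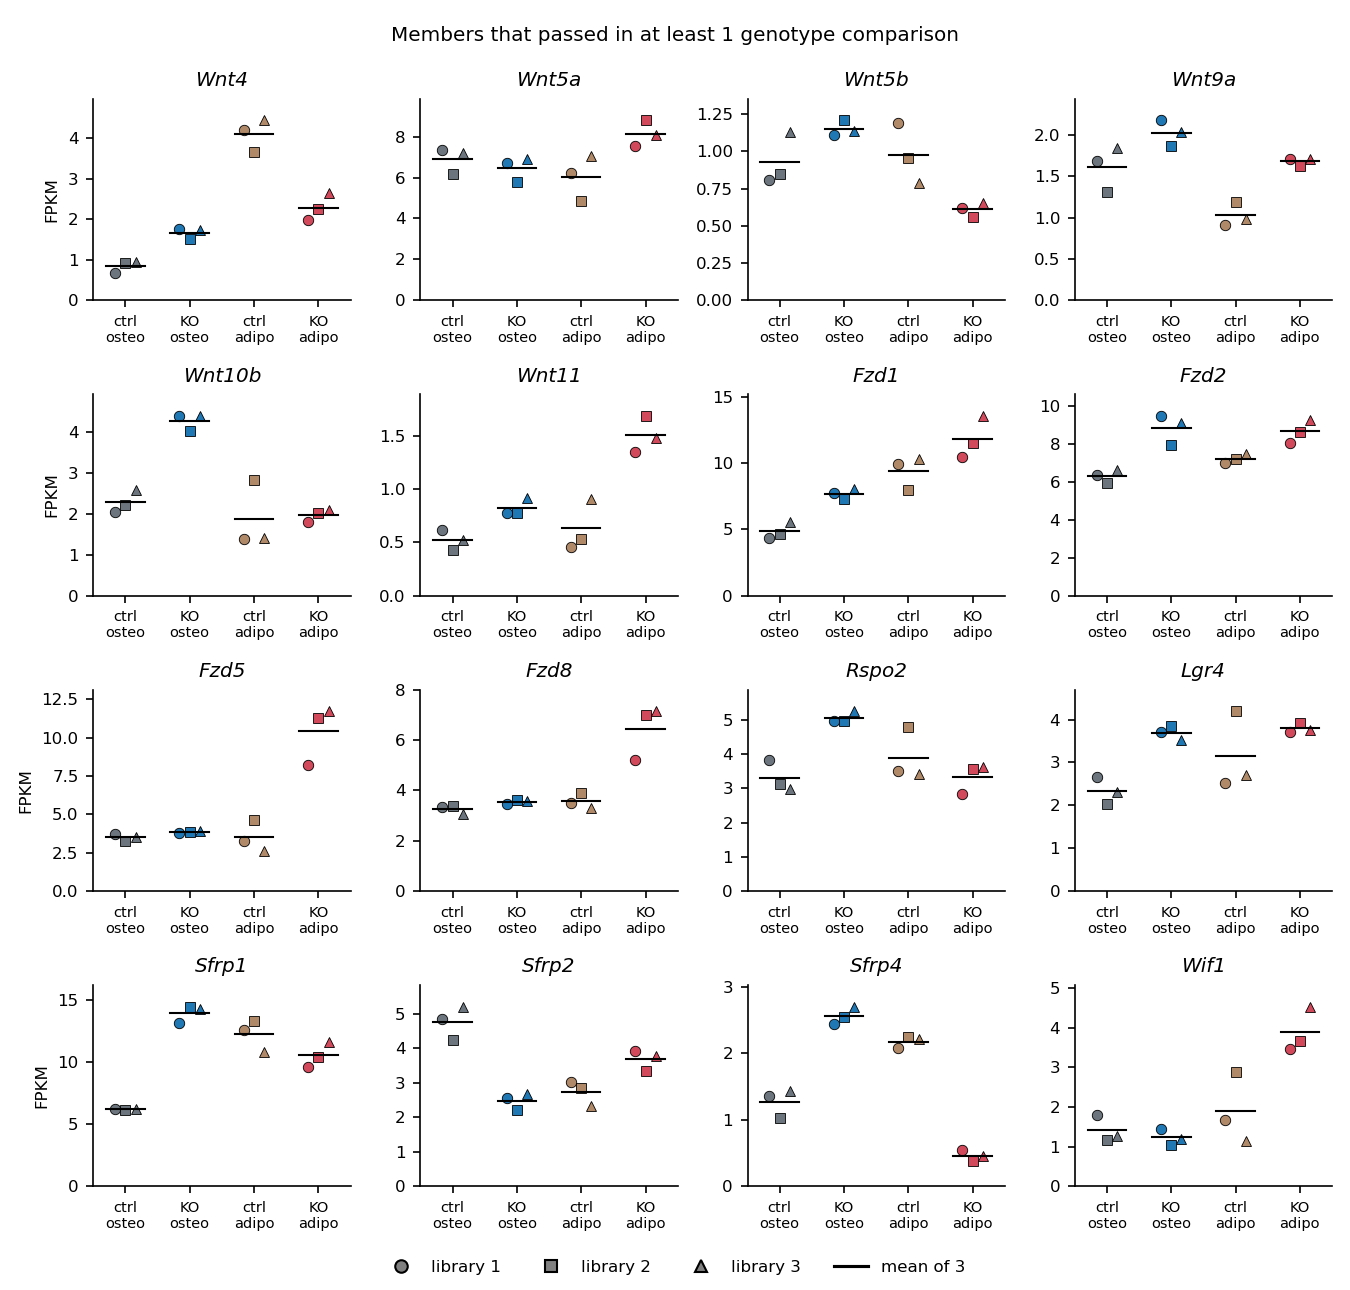
FPKM of the 16 genes that passed in at least 1 comparison of labelled knockout with control, in each of the 12 libraries (points, with the mean of 3 as a line; the shape gives the library number), for control (ctrl) and labelled knockout (KO) libraries in osteogenic and adipogenic medium. Sfrp1 in osteogenic medium, at 13.2 to 14.5 FPKM in labelled knockout against 6.16 to 6.25 FPKM in control libraries, is far above control in that medium only, and Fzd5 is so in adipogenic medium only.

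All 5 tested Frizzled receptors had positive differences in both media, also with equal sums of FPKM, median-ratio scaling or recovered fragments, and 2 passed in osteogenic and 3 in adipogenic medium. Of all 12871 genes, 6219 had positive differences in osteogenic and 6156 in adipogenic medium, and 4.94% and 16.7% passed as higher. Their summed FPKM was 31.2 to 32.7 in control and 40.4 to 42.5 in labelled knockout libraries in osteogenic medium, and 33.2 to 39.4 and 45.1 to 60.7 in adipogenic medium, with no overlap in either. Per length, Fzd7 was the most abundant in control libraries in osteogenic medium, with 39.3 to 41.4% of the sum. The receptors that passed in adipogenic medium were Fzd5, Fzd8 and Fzd2, and those in osteogenic medium Fzd1 and Fzd2.

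Fzd5 (ENSMUSG00000045005, chr1:64730558-64737751, minus strand), a receptor used by several Wnt ligands, showed the largest rise between genotypes among the 22 genes. In osteogenic medium it was at 3.74, 3.25 and 3.55 FPKM in control and 3.77, 3.82 and 3.89 FPKM in labelled knockout libraries (0.10 ± 0.16 SE, adjusted p = 0.78). Adipogenic medium gave 3.24, 4.64 and 2.61 against 8.25, 11.3 and 11.7 FPKM, 2.98 times the control mean and a log2 difference of 1.36 ± 0.16 (SE, adjusted p = 0.00019). The labelled knockout libraries in adipogenic medium were thus above all 9 others, and the interaction was 1.26 ± 0.22 (SE, adjusted p = 0.0037). Its share of the Frizzled FPKM was 7.84 to 11.8% in control and 18.3 to 19.8% in labelled knockout libraries in that medium. Antisense Gm38058 shares 17.8% of its exonic bases, and reads of the pair cannot be told apart.

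Fzd8 (ENSMUSG00000036904, chr18:9212163-9218136, plus strand), a close relative of Fzd5, had the same pattern at lower size. It was at 3.33, 3.396 and 3.08 FPKM in control and 3.46, 3.60 and 3.58 FPKM in labelled knockout libraries in osteogenic medium (0.09 ± 0.10 SE, adjusted p = 0.64). After adipogenic induction it was at 3.51, 3.90 and 3.30 against 5.22, 6.99 and 7.16 FPKM (0.70 ± 0.10 SE, adjusted p = 0.00054), with an interaction of 0.61 ± 0.14 (SE, adjusted p = 0.012).

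Fzd2 (ENSMUSG00000050288, chr11:102604396-102608058, plus strand), a receptor for Wnt5a among others, was the one gene of the 22 that passed as higher in both media. It was at 6.37, 5.93 and 6.60 FPKM in control and 9.47, 7.95 and 9.10 FPKM in labelled knockout libraries in osteogenic medium (0.43 ± 0.07 SE, adjusted p = 0.0046). Under adipogenic conditions it was at 6.96, 7.17 and 7.47 against 8.05, 8.63 and 9.27 FPKM (0.23 ± 0.07 SE, adjusted p = 0.028). The groups did not overlap in either medium, but the adipogenic call was lost without control library 1 or labelled knockout library 2 or 3 (adjusted p up to 0.11, differences of 0.19 to 0.28 in the 6 fits). The interaction was -0.20 ± 0.10 (SE, adjusted p = 0.19).

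Fzd1 (ENSMUSG00000044674, chr5:4753839-4758035, minus strand), a receptor that can act with Lrp6, was at 4.31, 4.66 and 5.55 FPKM in control and 7.76, 7.30 and 8.02 FPKM in labelled knockout libraries in osteogenic medium (0.58 ± 0.11 SE, adjusted p = 0.013). Without control library 1 or 2, or labelled knockout library 1 or 3, adjusted p reached up to 0.057 at differences of 0.51 or more. The values in adipogenic medium were 9.93, 7.96 and 10.3 against 10.5, 11.5 and 13.6 FPKM, without overlap and without passing (0.30 ± 0.11 SE, adjusted p = 0.066). The interaction was -0.27 ± 0.16 (SE, adjusted p = 0.26).

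Fzd7 did not pass in either medium. Its means were 12.9 ± 0.38 and 15.5 ± 0.45 FPKM (SD, n = 3) in control and labelled knockout libraries in osteogenic medium, and 10.3 ± 3.19 and 14.9 ± 3.01 FPKM in adipogenic medium, where the difference was 0.51 ± 0.18 (SE, adjusted p = 0.051). Without control library 2, which was at 13.9 FPKM against 8.53 and 8.32 FPKM, it was 0.73 (adjusted p = 0.0010). The co-receptors Lrp5 and Lrp6, which carry the signal to β-catenin, passed in neither medium. The differences were 0.16 and 0.14 in osteogenic medium, with 95% intervals of -0.03 to 0.35 and -0.03 to 0.32. In adipogenic medium they were 0.05 and 0.17, with intervals of -0.14 to 0.24 and -0.01 to 0.34, and Lrp6 was at 0.26 (adjusted p = 0.0050) without control library 2. In osteogenic medium the labelled knockout libraries lay above the controls for both co-receptors, whose levels were between 7.03 and 11.4 FPKM over the 12 libraries.

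The R-spondins and Lgr receptors strengthen Wnt signaling, and 2 of each were tested. Rspo2 (ENSMUSG00000051920, chr15:43020794-43170826, minus strand) was at 3.82, 3.13 and 2.97 FPKM in control and 4.96, 4.96 and 5.25 FPKM in labelled knockout libraries in osteogenic medium (0.50 ± 0.12 SE, adjusted p = 0.026), a call that held only without control library 1 among the fits that left out 1 library (adjusted p up to 0.10 in the other 5). Adipogenic medium gave 3.50, 4.78 and 3.42 against 2.83, 3.55 and 3.61 FPKM (-0.17 ± 0.12 SE, adjusted p = 0.28). The groups were apart in the first medium and overlapped in the second, and the interaction passed at -0.67 ± 0.16 (SE, adjusted p = 0.019).

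Lgr4 (ENSMUSG00000050199, chr2:109917647-110014257, plus strand), a receptor for all R-spondins, was at 2.66, 2.02 and 2.32 FPKM in control and 3.72, 3.85 and 3.52 FPKM in labelled knockout libraries in osteogenic medium (0.50 ± 0.13 SE, adjusted p = 0.041). The groups did not overlap, yet the call was lost without any 1 of the 6 libraries (adjusted p 0.061 to 0.15, differences of 0.43 to 0.57). After adipogenic induction it was at 2.52, 4.20 and 2.71 against 3.72, 3.91 and 3.76 FPKM (0.23 ± 0.13 SE, adjusted p = 0.19), and at 0.41 (adjusted p = 0.0016) without control library 2. The interaction was -0.26 ± 0.18 (SE, adjusted p = 0.33).

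Lgr6 and Rspo3 passed in neither medium, and both turned on control library 2 in adipogenic medium. Lgr6 was at 4.26 ± 0.75 and 6.92 ± 0.46 FPKM (SD, n = 3) in control and labelled knockout libraries in osteogenic medium, without overlap (0.60 ± 0.25 SE, adjusted p = 0.18). Under adipogenic conditions it was at 1.84, 5.45 and 2.15 against 2.60, 2.89 and 2.93 FPKM (-0.02 ± 0.25 SE, adjusted p = 0.95, but 0.10 with equal sums of FPKM), and without control library 2 the sign turned, at 0.35 (adjusted p = 0.023). Rspo3, an R-spondin made by stromal cells, was at 2.06 ± 0.10 and 1.51 ± 0.12 FPKM in osteogenic medium, where the labelled knockout lay below control without passing (-0.29 ± 0.34 SE, adjusted p = 0.68). The values in adipogenic medium were 6.18, 1.48 and 6.39 FPKM in control and 5.70, 4.58 and 4.17 FPKM in labelled knockout libraries (0.18 ± 0.34 SE, adjusted p = 0.71), and the difference was -0.33 (adjusted p = 0.017) without control library 2. Antisense Gm48159 shares 13.1% of the exonic bases of Rspo3, and their reads cannot be told apart.

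Of the 4 Sfrp genes 3 were tested, and their make-up differed between the groups. Sfrp proteins resemble the ligand-binding part of a Frizzled receptor and bind Wnt proteins in the medium. In control libraries in osteogenic medium Sfrp1 made up 48.3 to 54.0% and Sfrp2 37.0 to 40.2% of the summed Sfrp FPKM. In the labelled knockout these shares were 72.4 to 75.0% and 11.4 to 14.1%. In adipogenic medium the shares of Sfrp2 were 15.1 to 17.1% and 23.5 to 27.7%, and those of Sfrp4 11.8 to 14.4% in control and 2.67 to 3.89% in labelled knockout libraries. The ratio of Sfrp1 to Sfrp2 in FPKM was 1.201 to 1.46 and 5.14 to 6.56 in control and labelled knockout libraries in osteogenic medium, and 4.17 to 4.69 and 2.47 to 3.11 in adipogenic medium, so that it was higher in the labelled knockout in the first and lower in the second. The sum of the Sfrp genes was 11.4 to 12.95 and 18.2 to 19.7 FPKM in osteogenic medium and 15.4 to 18.5 and 14.1 to 15.9 FPKM in adipogenic medium.

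Sfrp1 (ENSMUSG00000031548, chr8:23411502-23449632, plus strand), whose loss is known to raise bone mass in mice, had the smallest adjusted p of the 22 genes in osteogenic medium. There it was at 6.21, 6.16 and 6.25 FPKM in control and 13.2, 14.5 and 14.3 FPKM in labelled knockout libraries, 2.25 times the control mean and a log2 difference of 1.06 ± 0.08 (SE, adjusted p = 8.1e-05). Adipogenic medium gave 12.6, 13.3 and 10.8 against 9.63, 10.4 and 11.7 FPKM (-0.20 ± 0.08 SE, adjusted p = 0.087). The control libraries in osteogenic medium were thus below all 9 others, the genotypes overlapped in adipogenic medium, and the interaction was -1.25 ± 0.11 (SE, adjusted p = 8.8e-05).

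Sfrp2 (ENSMUSG00000027996, chr3:83766321-83774316, plus strand), the Sfrp gene that fell in osteogenic medium, was at 4.84, 4.23 and 5.20 FPKM in control and 2.56, 2.21 and 2.68 FPKM in labelled knockout libraries in osteogenic medium (-0.72 ± 0.09 SE, adjusted p = 0.0015). After adipogenic induction it was at 3.02, 2.84 and 2.32 against 3.91, 3.35 and 3.76 FPKM (0.33 ± 0.09 SE, adjusted p = 0.023). The groups did not overlap in either medium, and the interaction was 1.05 ± 0.13 (SE, adjusted p = 0.00060). The adipogenic call was lost without control library 3 or labelled knockout library 1 or 3 (adjusted p up to 0.082, differences of 0.25 to 0.39 in the 6 fits). Antisense Gm26771 shares 16.1% of its exonic bases, and their reads cannot be told apart.

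Sfrp4 (ENSMUSG00000021319, chr13:19623104-19632994, plus strand), a gene whose loss causes thin cortical bone, had the largest interaction of the 22 genes. It was at 1.36, 1.03 and 1.44 FPKM in control and 2.45, 2.55 and 2.71 FPKM in labelled knockout libraries in osteogenic medium (0.66 ± 0.08 SE, adjusted p = 0.0013). Under adipogenic conditions it was at 2.08, 2.24 and 2.22 FPKM in control and 0.548, 0.381 and 0.453 FPKM in labelled knockout libraries, 0.211 times the control mean (-1.12 ± 0.08 SE, adjusted p = 1.3e-05), from 489 and 109 fragments. The labelled knockout thus held the highest of the 4 group means in osteogenic medium and the lowest in adipogenic medium, and the interaction was -1.78 ± 0.12 (SE, adjusted p = 1.2e-05).

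**Figure D4:**
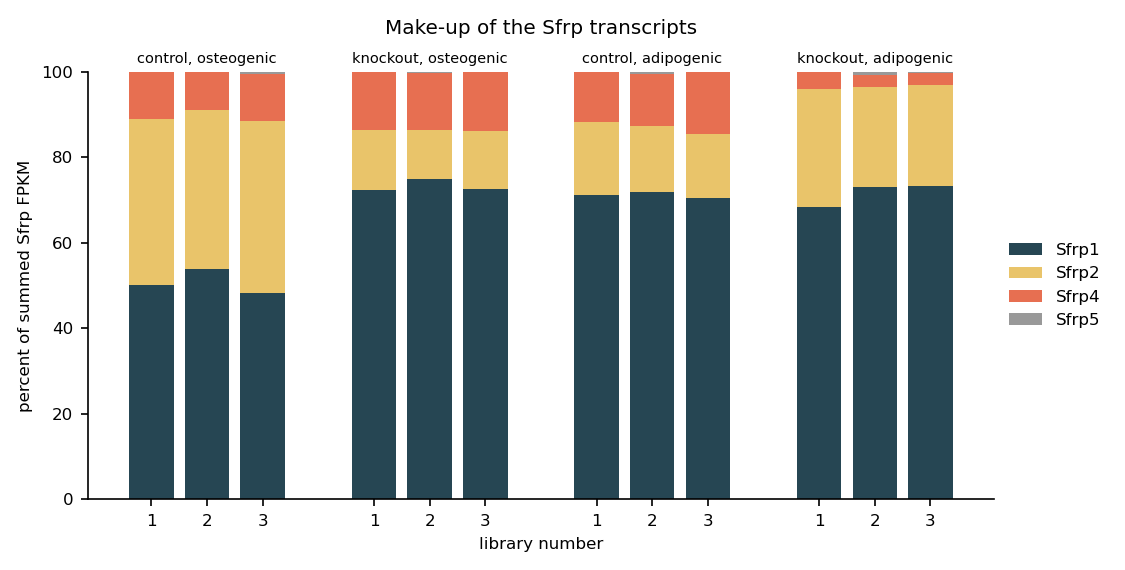
Share of Sfrp1, Sfrp2, Sfrp4 and Sfrp5 in the summed FPKM of the Sfrp genes, in percent (stacked bars), for each of the 3 libraries of the 4 groups. Sfrp2 takes 37.0% to 40.2% in control libraries in osteogenic medium and less in all 9 others, and Sfrp4 takes 2.67% to 3.89% in labelled knockout libraries in adipogenic medium.

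Wif1 (ENSMUSG00000020218, chr10:121033960-121100650, plus strand), which binds Wnt proteins outside the cell, was at 1.80, 1.18 and 1.26 FPKM in control and 1.45, 1.05 and 1.199 FPKM in labelled knockout libraries in osteogenic medium (-0.11 ± 0.19 SE, adjusted p = 0.81). The values in adipogenic medium were 1.68, 2.87 and 1.14 against 3.47, 3.67 and 4.53 FPKM (0.79 ± 0.19 SE, adjusted p = 0.012). The groups overlapped in the first medium and not in the second, where control library 2 was the nearest to the labelled knockout. The interaction of 0.90 ± 0.27 (SE, adjusted p = 0.043) passed in 1 of the 12 fits that left out 1 library, the one without that library, with adjusted p of up to 0.10 and values of 0.70 to 1.13, and it was also lost with a pseudocount of 0.1, without the filter, with the replicate block and with voom (adjusted p up to 0.097). The adipogenic difference did not pass on only the 6 libraries compared (adjusted p = 0.074). Dkk3, a Dkk protein whose action on Wnt signaling is less settled than that of Dkk1, was the most abundant member per length. Its means were 64.5 ± 3.82 and 74.9 ± 3.44 FPKM (SD, n = 3) in osteogenic and 86.0 ± 18.9 and 83.0 ± 4.49 FPKM in adipogenic medium, and it passed in neither. The difference was 0.21 ± 0.12 (SE, adjusted p = 0.35) in osteogenic and -0.03 ± 0.12 (SE, adjusted p = 0.88) in adipogenic medium, the latter 0.16 with equal sums of FPKM.

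The media were also compared within each genotype. These comparisons share libraries with those above. In control libraries 8 of the 22 genes differed between adipogenic and osteogenic medium, beside 22.8% of all genes, with Wnt4, Fzd1, Sfrp1, Sfrp4 and Dkk3 higher and Wnt9a, Lrp6 and Sfrp2 lower in adipogenic medium. In labelled knockout libraries 16 genes passed, beside 27.9% of all genes, with 8 higher (Wnt4, Wnt11, Fzd1, Fzd5, Fzd8, Rspo3, Sfrp2 and Wif1) and 8 lower (Wnt5b, Wnt10b, Lrp5, Lrp6, Rspo2, Lgr6, Sfrp1 and Sfrp4). Wnt11 again stood there through the group that brought it into the tested set, and without it 15 of 21 passed. Wnt5b needed the labelled knockout libraries in osteogenic medium to be tested, so the filter favours its call as lower. With equal sums of FPKM the split in the labelled knockout was 9 higher and 4 lower. The media did not overlap for 6 genes that were higher and 3 that were lower in adipogenic medium in control libraries (34.4% of all genes, 16.2% higher and 18.3% lower), and for 10 and 9 genes in the labelled knockout (52.5%, 26.0% and 26.5%). Wnt4 differed by 1.47 ± 0.10 (SE, adjusted p = 3.4e-05) in control cells, 4.87 times its level in osteogenic medium, and by 0.29 ± 0.10 (SE, adjusted p = 0.046) in the labelled knockout. Sfrp1 differed by 0.87 ± 0.08 (SE, adjusted p = 0.00020) in control and -0.38 ± 0.08 (SE, adjusted p = 0.0065) in labelled knockout libraries. The corresponding values were -0.63 ± 0.09 (SE, adjusted p = 0.0022) and 0.43 ± 0.09 (SE, adjusted p = 0.0077) for Sfrp2, and 0.49 ± 0.08 (SE, adjusted p = 0.0039) and -1.29 ± 0.08 (SE, adjusted p = 5.3e-06) for Sfrp4. All 3 Sfrp genes thus had opposite signs between the media in the 2 genotypes. Fzd1 was higher in adipogenic medium in both genotypes (0.83 and 0.56) and Lrp6 lower in both (-0.35 and -0.32).

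Rspo3 was higher in adipogenic medium in the labelled knockout (1.21 ± 0.34 SE, adjusted p = 0.024) and did not pass in control (0.73 ± 0.34 SE, adjusted p = 0.14), where it was at 1.25 (adjusted p = 8.5e-06) without control library 2. The count in control libraries was 13 without that library, where 47.8% of all genes passed, and 5 without control library 1 in adipogenic medium, where 10.8% did. Among the 8 calls in control libraries, Wnt4, Fzd1, Sfrp1, Sfrp2 and Sfrp4 passed in each of the 6 fits without 1 library. Dkk3 passed only without control library 2 or 3 in adipogenic medium (adjusted p up to 0.14, differences of 0.22 to 0.52). Lrp6 was lost without control library 1 or 3 in adipogenic medium (adjusted p up to 0.052) and Wnt9a without control library 1 or 3 in either medium (up to 0.074). In labelled knockout libraries Lrp5 was lost without any 1 library (adjusted p 0.079 to 0.13), Rspo3 was kept only without library 3 in adipogenic medium (up to 0.075) and Wnt4 only without library 1 in that medium (up to 0.16).

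**Figure D5:**
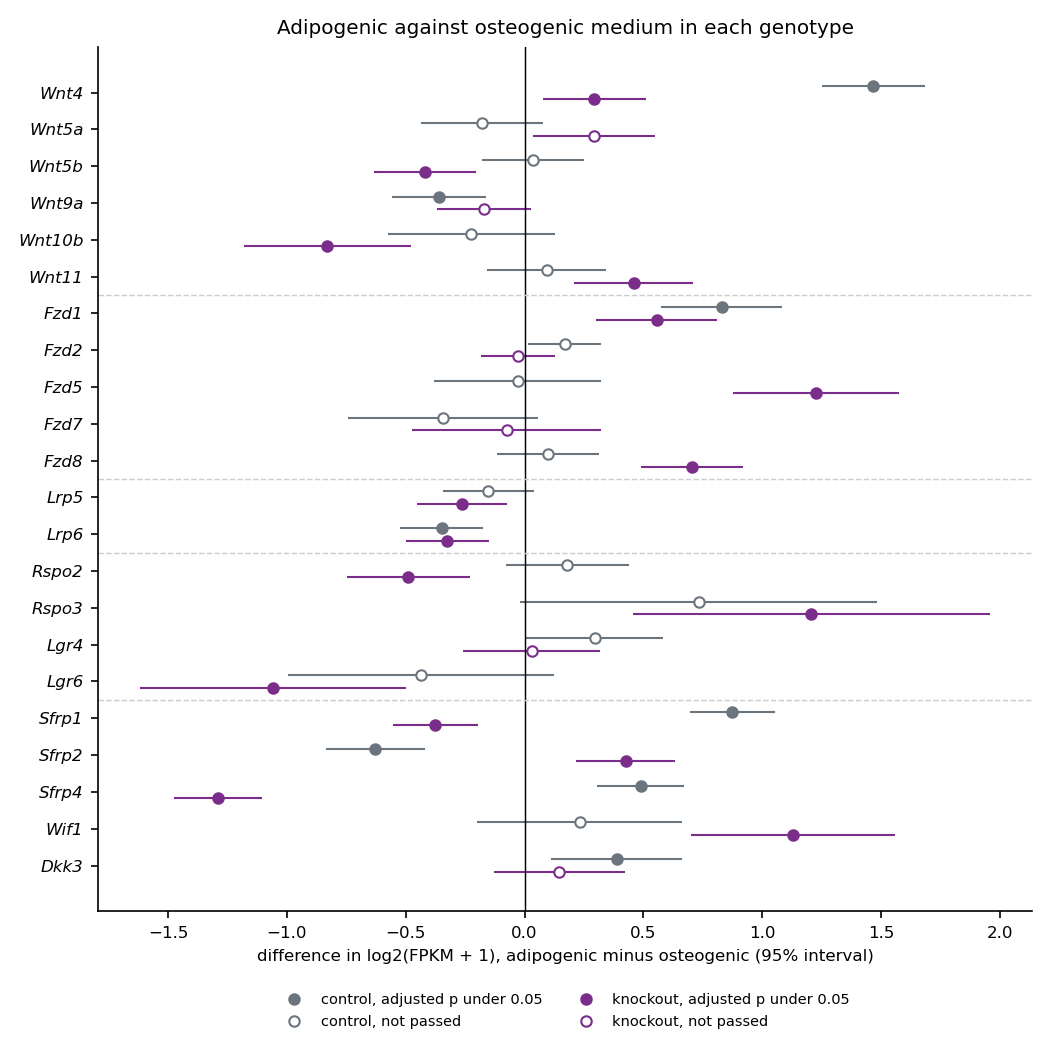
Difference in log2(FPKM + 1) between adipogenic and osteogenic medium (points) with its 95% interval (lines) for the 22 tested genes, in control (grey) and labelled knockout (purple) libraries; filled points passed an adjusted p of 0.05. Sfrp1 and Sfrp4 lie right of 0 in control and left of 0 in labelled knockout libraries, and Sfrp2 the reverse.

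The remaining 27 genes stayed under the level needed for testing. Wnt3a and Dkk4 were listed at 0 in all 12 libraries, and 20 of the 27, with these, stayed under 0.5 FPKM in every library. The 27 were Wnt1, Wnt2, Wnt2b, Wnt3, Wnt3a, Wnt6, Wnt7a, Wnt7b, Wnt8a, Wnt8b, Wnt9b, Wnt10a and Wnt16 among the ligands, Fzd3, Fzd4, Fzd6, Fzd9 and Fzd10, Rspo1 and Rspo4, Lgr5, Sfrp5, Dkk1, Dkk2, Dkk4 and Frzb, and Axin2. Fitted without the filter, which adds genes so that 2.89% of 30520 genes passed in osteogenic medium, 1 of the 25 above 0 passed there (9 had an unadjusted p under 0.05). It was Dkk2, which can inhibit or activate Wnt signaling, at 0.0893, 0.0803 and 0.137 FPKM in control and 0.270, 0.343 and 0.222 FPKM in labelled knockout libraries (0.21 ± 0.04 SE, adjusted p = 0.025), from 20 and 56 fragments. In adipogenic medium, where 12.5% of 30520 genes passed, 3 of 25 did. Fzd4, a receptor for Wnt proteins and norrin, was at 0.353, 0.420 and 0.349 FPKM in control and 0.642, 1.10 and 1.16 FPKM in labelled knockout libraries (0.51 ± 0.11 SE, adjusted p = 0.016). The others, Fzd10 and Wnt8b, rest on 3 and 1 fragments in control and 27 and 11 in labelled knockout libraries, too few for a fold. In the same fit 2 of 25 passed for the interaction (Dkk2 and Fzd3, beside 6.79% of 30520 genes), 3 between media in the labelled knockout (Dkk2, Frzb and Fzd10, beside 10.7%), and 0 between media in control libraries by limma (6.68%), where 3 had an unadjusted p under 0.05. Dkk1 was above 0 in 2 of 12 libraries.

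Axin2, a feedback inhibitor widely used as a readout of β-catenin signaling, was among the genes under the filter. It was at 0.361, 0.292 and 0.257 FPKM in control and 0.758, 0.492 and 0.618 FPKM in labelled knockout libraries in osteogenic medium. Adipogenic medium gave 0.453, 0.868 and 0.673 against 0.754, 0.877 and 1.21 FPKM. The osteogenic groups did not overlap, but the difference did not pass in the fit without the filter (0.31 ± 0.12 SE, adjusted p = 0.25), nor did that in adipogenic medium (0.23 ± 0.12 SE, adjusted p = 0.27). The values rest on 88, 186, 201 and 296 fragments in the 4 groups in this order.

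Of 64 other genes of the pathway, on a list written from general knowledge but with earlier results of these data known, 49 were tested. In osteogenic medium 15 passed, 12 higher and 3 lower (3 higher and 0 lower with equal sums of FPKM, where Ryk, Ptk7, Ccn5 and Myc no longer passed) or 30.6% of the 49, beside 9.09% of all genes. The median log2 difference of the 49 was 0.10. The 6 with the smallest adjusted p were the co-receptors Ryk (0.33 ± 0.04 SE, adjusted p = 0.0015) and Ptk7 (0.38 ± 0.06 SE, adjusted p = 0.0032), the glypican Gpc4 (0.40 ± 0.07 SE, adjusted p = 0.0048), and Ccn5, Nkd2 and Myc, described below. In adipogenic medium 21 passed (42.9%, beside 33.2% of all genes), 15 higher and 6 lower (19 and 2 with equal sums), with a median of 0.05. The 6 with the smallest adjusted p were all higher. They were Ptk7 (0.46 ± 0.06 SE, adjusted p = 0.00029), Ryk (0.34 ± 0.04 SE, adjusted p = 0.00031), Apc of the β-catenin destruction complex (0.34 ± 0.04 SE, adjusted p = 0.00041), the corepressor Tle1 (0.35 ± 0.06 SE, adjusted p = 0.0022), the Frizzled-removing ligase Znrf3 (0.32 ± 0.07 SE, adjusted p = 0.0069) and the Wnt7 co-receptor Reck (0.40 ± 0.09 SE, adjusted p = 0.0072). Ryk was at 13.6 ± 0.52 and 17.3 ± 0.36 FPKM (SD, n = 3) in control and labelled knockout libraries in osteogenic medium and 16.7 ± 0.63 and 21.5 ± 0.40 FPKM in adipogenic medium, and the corresponding means of Ptk7 were 21.7 ± 1.36, 28.5 ± 1.28, 27.8 ± 0.51 and 38.8 ± 2.10 FPKM. Of the 15 cytoplasmic components, all tested, 1 passed in osteogenic and 2 in adipogenic medium, or 6.67% and 13.3%, beside 9.09% and 33.2% of all genes.

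Of 16 genes listed as Wnt targets 9 were tested, and in osteogenic medium 4 were higher and 1 lower in the labelled knockout, beside 4.94% and 4.15% of all genes, and in adipogenic medium 2 were higher and 2 lower, beside 16.7% and 16.5%. Ccn5 rose from 130.0 ± 9.46 to 162 ± 5.59 FPKM (0.32 ± 0.06 SE, adjusted p = 0.0094), Ccn4 from 20.1 ± 1.11 to 30.02 ± 0.80 FPKM (0.56 ± 0.15 SE, adjusted p = 0.047), and the feedback inhibitor Nkd2 from 3.79 ± 0.50 to 5.79 ± 0.27 FPKM (0.51 ± 0.10 SE, adjusted p = 0.014). The antagonist Apcdd1 rose in that medium (0.43 ± 0.10 SE, adjusted p = 0.023) and fell in adipogenic medium (-0.30 ± 0.10 SE, adjusted p = 0.041), and Myc fell from 24.0 ± 0.49 to 20.7 ± 0.65 FPKM in osteogenic medium (-0.20 ± 0.04 SE, adjusted p = 0.017). In adipogenic medium Ccnd1, a cell cycle regulator, rose from 46.9 ± 23.7 to 80.3 ± 1.603 FPKM (0.87 ± 0.24 SE, adjusted p = 0.020), Znrf3 rose as given above, and Cd44 fell (-0.41 ± 0.13 SE, adjusted p = 0.036). The differences that did not pass were 0.09, 0.28, 0.00 and 0.05 for Znrf3, Ccnd1, Cd44 and Bambi in osteogenic medium, and -0.04, 0.04, -0.23, 0.05 and 0.01 for Nkd2, Myc, Ccn4, Ccn5 and Bambi in adipogenic medium. Nkd2 and Myc passed in 2 of the 6 fits that left out 1 library in osteogenic medium, with adjusted p of up to 0.061 and 0.074. With equal sums of FPKM Nkd2 still passed in that medium, and of Ccn4 and Apcdd1 at most 1 did.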

How the data were processed

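RNA-seq of MSCs was analysed in 12 libraries, 3 for each of 2 genotypes in 2 media, grouped by their labels. The authors deposited FPKM per gene for each library. The submitters' processing notes name Bowtie 0.12.2 and mm9, while the study's reporting summary lists HISAT2 and Ballgown, so that the aligner and build behind the table are not settled, and the annotation and use of strand are not given in the sources used here. Libraries had been made with a NEBNext Ultra kit.

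Genes were matched by Ensembl identifier to GENCODE M21 (54495 of 54532 had a symbol), and gene coordinates are of GRCm38. Fragments were recovered from the FPKM steps and exonic lengths; 98.2% to 98.5% of values under 30 fragments were whole to within 0.02, and fragment numbers bear on counting error only, and the intervals of differences on the spread between libraries. The members were picked by symbol, and the members and all lists were chosen with earlier results of these data known. Differences were tested with limma 3.58.1 in R 4.3.3 on log2(FPKM + 1), which understates changes of low genes, with a mean-variance trend, one mean per group over all 12 libraries, and Benjamini-Hochberg adjustment over the 12871 genes with at least 1 FPKM in at least 3 libraries, at an adjusted p of 0.05, two-sided. Log2 differences are given with their SE. All 22 tested members are named, those that passed between genotypes or in the interaction with all 12 values, with the 6 other pathway genes of smallest adjusted p in each medium and the listed targets. The procedure was checked on simulated data. Alternatives were a pseudocount of 0.1, no filter, equal sums of FPKM (TPM), median-ratio scaling, no trend, a block for the replicate number, a fit on the 6 libraries of the comparison alone, voom on recovered fragments, each library left out, and both adipogenic libraries numbered 2 left out. Promoters are of RefSeq. Figures were drawn in Python 3.11.15 with matplotlib 3.10.9.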

Additional observations from a re-analysis of the deposited data

Results flagged for a closer look

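For 9 of the 22 tested genes the difference between labelled knockout and control was itself different in the 2 media, by the interaction term of the limma fit (adipogenic minus osteogenic difference, log2 scale). Of all genes tested, 20.4% passed this interaction. The interaction was -1.78 ± 0.12 (SE, adjusted p = 1.2e-05) for Sfrp4, -1.25 ± 0.11 (SE, adjusted p = 8.8e-05) for Sfrp1, -1.17 ± 0.14 (SE, adjusted p = 0.00037) for Wnt4, -0.67 ± 0.16 (SE, adjusted p = 0.019) for Rspo2 and -0.45 ± 0.14 (SE, adjusted p = 0.042) for Wnt5b. It was 1.26 ± 0.22 (SE, adjusted p = 0.0037) for Fzd5, 1.05 ± 0.13 (SE, adjusted p = 0.00060) for Sfrp2, 0.90 ± 0.27 (SE, adjusted p = 0.043) for Wif1 and 0.61 ± 0.14 (SE, adjusted p = 0.012) for Fzd8. The calls of Wif1 and Wnt5b were kept in 1 and 3 of the 12 fits that left out 1 library. Rspo2 and Wnt5b did not pass with equal sums of FPKM, and the filter favours the interaction of Wnt5b. Sfrp4 and Wnt4 were higher in the labelled knockout in osteogenic medium and lower in adipogenic medium with no overlap of libraries in either, and Sfrp2 was lower and then higher. The summed glucocorticoid-induced genes were lower in the labelled knockout in osteogenic medium (198 to 203 against 284 to 296 FPKM) and higher in adipogenic medium (427 to 468 against 206 to 248 FPKM), and their part in these 9 interactions was not tested.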

How the results depend on the processing

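Over the alternatives, no called gene among those named changed sign. Of 65 called values, those of members and of the 6 other pathway genes named in each medium, 36 were kept in every alternative fit. The fits that left out a library are included in that count. Fitted on only the 6 libraries compared, 14 members passed in osteogenic medium, 6 in adipogenic medium and 4 between media in control libraries, beside 26.6%, 12.98% and 3.81% of all genes. Leaving out 1 library gave 5 to 7 in osteogenic medium, 8 to 17 in adipogenic medium, 7 to 11 for the interaction, and 5 to 13 and 13 to 14 between media in control and labelled knockout libraries, beside 4.13% to 5.21%, 21.7% to 51.04%, 13.97% to 42.2%, 10.6% to 47.8% and 19.4% to 22.3% of all genes. Without both adipogenic libraries numbered 2, 13 passed between media in control libraries (47.8% of all genes). The other pathway genes that passed in osteogenic medium numbered 8 without the filter, 3 with equal sums of FPKM, 24 on only the 6 libraries and 4 to 9 with 1 library left out. In adipogenic medium they numbered 6 on only the 6 libraries and 9 to 30 with 1 left out. Chd7 passed in osteogenic medium on only the 6 libraries (-0.20, adjusted p = 0.047) and in adipogenic medium with equal sums (0.22, adjusted p = 0.047). The cause of these changes was not tested, beyond the number of libraries or genes that enter a fit. Equal sums moved the median of all genes by 0.14 in adipogenic medium, 0.16 for the interaction and -0.10 between media in control libraries, and the share of calls that were higher from 50.4% to 78.4%, 53.1% to 75.4% and 46.1% to 30.6%.

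Libraries with the same number did not all deviate together (correlation of deviations in osteogenic medium -0.04 to 0.06, and in adipogenic medium 0.47, 0.40 and -0.29), with a negative value for 1 of the 3 adipogenic pairs, so the numbers were not taken to pair them. With the replicate number as a block, 8 and 11 members passed in osteogenic and adipogenic medium, 7 for the interaction, 6 and 13 between media, and 6 and 19 of the other pathway genes (5.78%, 30.2%, 16.9%, 15.1% and 22.4% of all genes in the 5 comparisons). Depth limits Wnt5b, Wnt11 and Sfrp4, with as few as 92, 114 and 109 fragments in a group.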

Other observations

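Among the other pathway genes, a pair that was singled out after their values were seen passed in both media with opposite signs. Vangl2, a membrane protein of planar cell polarity, had means of 0.631 ± 0.093 (control) and 1.10 ± 0.14 FPKM (labelled knockout, SD, n = 3) in osteogenic medium (log2 difference 0.36) and of 1.05 ± 0.16 and 0.695 ± 0.11 FPKM in adipogenic medium (-0.28). It reached 1 FPKM only in labelled knockout libraries in osteogenic medium and control libraries in adipogenic medium, the higher group in each. The filter thus favours this crossing, and the differences are given as a description, with no test. Vangl2 is also among the genes counted as passed above. Apcdd1 was at 4.14 ± 0.55 and 5.92 ± 0.37 FPKM and at 4.05 ± 0.096 and 3.12 ± 0.49 FPKM in the same order. Tcf7l1, a TCF factor that often represses, was higher in the labelled knockout in both media (0.46 ± 0.10 SE, adjusted p = 0.019 and 0.38 ± 0.10 SE, adjusted p = 0.017). With equal sums of FPKM, 3 of the other pathway genes passed as higher in osteogenic medium, Gpc4 and Nkd2 among them. Apcdd1 and Tcf7l1 thus did not both pass there under that scaling. Porcn and Wls, which acylate and carry Wnt ligands for secretion, passed as higher in adipogenic medium (0.42 ± 0.13 SE, adjusted p = 0.036 and 0.26 ± 0.08 SE, adjusted p = 0.029), with overlapping libraries for Wls.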
